A study of Mus musculus with 16 samples.

Results

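Mybpc3, Mycl, Plin5, Car3, Kif26a, Tmem25, Cmtm1, Slc26a7, Cmtm2a and Itga8 are 10 genes whose array signal in cultured mouse ovarian follicles was far higher after 24 h than after 12 h of culture. They were picked for the largest such change in an earlier look at these arrays, so their difference between the times is given here as a description, with no test. They are 10 of the 12172 genes that carried a single symbol and passed a filter on low signal. The annotation ties 21 probe sets to them: 20 to a single gene and 1, 1451976_s_at, to both Cmtm1 and Cmtm2a. Of these 21 probe sets 17 passed the filter, and 8 of those 17 would not have passed on their mean at 12 h, so they entered through the time at which they were high.

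The study asked which transcripts differ when follicles are exposed to anti-Müllerian hormone (AMH), a TGF-β-type growth factor made by the granulosa cells of growing follicles. The 4 groups were follicles with 50 ng/ml recombinant AMH for 24 h, untreated controls kept for 24 h, follicles with AMH for 12 h and untreated controls kept for 12 h, with 4 arrays each. All 4 groups held preantral to small antral follicles dissected from female C57BL/6Tac mice given as 8 weeks old in the sample labels and as 6 to 8 weeks in the series' design, and all were cultured with both gonadotropins, follicle-stimulating hormone (FSH) at 80 IU/L together with luteinizing hormone (LH) at 10 IU/L. The follicles of 8 mice were pooled per experiment and divided between AMH and control, so each time has 4 pairs of arrays from a shared pool, and each array holds RNA of 6 to 9 whole follicles. No group was kept without gonadotropins and no array was made before culture. A follicle is an oocyte wrapped in granulosa cells and a theca layer, so a lower signal from fewer cells of a type and from less RNA per cell cannot be told apart.

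The arrays had been scaled to one trimmed mean signal and had medians of 27.8 to 40.2, and their number, 4 per group, limits the precision. Log2 signals of arrays in one group correlated at 0.923 to 0.977. At 24 h the mean of 20 oocyte markers stood at 8.71 in AMH replicate 1 and at 8.84 in control replicate 4, against 7.14 to 7.78 in the other 6 arrays, so this pair of arrays was set apart in oocyte transcripts. At 12 h it ran from 7.71 to 8.24 in AMH follicles and from 6.96 (replicate 4) to 9.16 (replicate 3) in controls. At 24 h AMH replicate 1 also deviated most like control replicate 4 over all genes (r = 0.54) and not like control replicate 1 of its own pool (r = -0.44), and AMH replicate 4 most like control replicate 1 (r = 0.28) and not like control replicate 4 (r = -0.29).

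Most of the 10 genes are best known outside the ovary. Mybpc3 encodes cardiac myosin-binding protein C, which sits on the thick filament of heart muscle, and Mycl encodes L-Myc, a transcription factor of the MYC family that binds DNA together with MAX. Plin5 is a lipid droplet coat protein of tissues that burn fat, Car3 is a cytosolic carbonic anhydrase of muscle, fat and liver, and Slc26a7 is an anion transporter of kidney and stomach. Kif26a is an atypical kinesin that restrains GDNF-Ret signalling in mouse enteric neurons, and Tmem25 is an immunoglobulin-superfamily membrane protein of neurons. Itga8 is the integrin chain that pairs with β1 and binds nephronectin, and Cmtm1 and Cmtm2a belong to the CKLF-like MARVEL transmembrane family, with Cmtm2a known in mouse testis as a corepressor of the androgen receptor. FSH acts on granulosa cells through cyclic AMP, and LH drives the short-lived ovulatory gene program.

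Promoter windows of RefSeq, from 250 bases before to 50 bases after a gene start on build GRCm38.p6, were at hand for 8 of the 10 genes. They are shown for the pair that ranked first among the 10 (Mybpc3 and Mycl) and for Plin5, which ran opposite to them between the 24 h arrays. Also shown are Itga8, Cmtm1 and Cmtm2a, whose deviations from the group mean correlated with those of Mycl at 0.16, 0.01 and -0.65 at 24 h. Capitals mark the motif matches found. Each is written 5′ to 3′ on the gene's strand.
Mybpc3 (chr2:91117894-91118193, plus strand): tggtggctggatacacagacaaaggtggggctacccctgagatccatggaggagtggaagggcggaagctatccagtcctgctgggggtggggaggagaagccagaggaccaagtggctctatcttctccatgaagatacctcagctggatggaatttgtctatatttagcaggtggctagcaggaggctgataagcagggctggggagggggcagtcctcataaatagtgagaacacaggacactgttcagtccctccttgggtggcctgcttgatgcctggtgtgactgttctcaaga
Mycl (chr4:122995681-122995980, plus strand): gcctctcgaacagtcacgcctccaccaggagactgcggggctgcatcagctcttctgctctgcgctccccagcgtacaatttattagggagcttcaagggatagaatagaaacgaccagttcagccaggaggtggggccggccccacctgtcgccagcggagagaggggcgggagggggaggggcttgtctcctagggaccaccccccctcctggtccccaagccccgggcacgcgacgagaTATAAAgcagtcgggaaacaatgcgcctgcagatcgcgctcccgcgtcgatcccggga
Plin5 (chr17:56117499-56117798, minus strand): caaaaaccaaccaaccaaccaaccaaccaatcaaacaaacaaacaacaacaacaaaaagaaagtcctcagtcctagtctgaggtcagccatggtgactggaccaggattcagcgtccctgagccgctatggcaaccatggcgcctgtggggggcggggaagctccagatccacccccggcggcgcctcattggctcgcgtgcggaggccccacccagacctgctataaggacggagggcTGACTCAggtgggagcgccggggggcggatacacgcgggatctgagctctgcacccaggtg
Itga8 (chr2:12301895-12302194, minus strand): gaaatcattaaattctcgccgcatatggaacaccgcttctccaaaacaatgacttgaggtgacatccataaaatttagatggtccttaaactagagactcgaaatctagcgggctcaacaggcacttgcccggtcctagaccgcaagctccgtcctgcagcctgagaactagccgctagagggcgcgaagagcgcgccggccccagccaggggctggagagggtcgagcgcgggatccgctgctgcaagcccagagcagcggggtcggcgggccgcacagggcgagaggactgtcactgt
Cmtm1 (chr8:104310096-104310395, minus strand): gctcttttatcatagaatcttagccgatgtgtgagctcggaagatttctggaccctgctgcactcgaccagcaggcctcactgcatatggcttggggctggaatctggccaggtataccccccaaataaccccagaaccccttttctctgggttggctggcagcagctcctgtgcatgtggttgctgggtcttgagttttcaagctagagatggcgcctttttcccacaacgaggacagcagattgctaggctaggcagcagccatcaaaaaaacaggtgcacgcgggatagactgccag
Cmtm2a (chr8:104293132-104293431, minus strand): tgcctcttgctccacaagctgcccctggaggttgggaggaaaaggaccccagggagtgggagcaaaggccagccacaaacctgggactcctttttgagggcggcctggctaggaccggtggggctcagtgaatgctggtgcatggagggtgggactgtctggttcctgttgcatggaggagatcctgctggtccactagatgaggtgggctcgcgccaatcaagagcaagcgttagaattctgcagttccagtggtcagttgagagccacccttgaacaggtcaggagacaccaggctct
Both strands of the windows of all 8 genes were searched for 8 motifs. The full cyclic AMP response element TGACGTCA is in 1.79% of all 32851 windows and its TGACG core, which the full element contains, in 20.8%. CAAGGTCA, a site of NR5A factors, is in 1.56%, the E-box CACGTG in 7.15%, the GATA site AGATAA in 11.2%, the AP-1 site TGANTCA in 7.81%, the FOXO site TGTTTAC in 3.65% and the TATA box TATAAA in 13.6%. The 8 genes held only 2 matches. Mycl has TATAAA at positions -8 to -3 from the annotated start, and Plin5 has the AP-1 letters TGACTCA at -11 to -5. A match is a description of the letters, not of binding, and the other windows say only that these letters are not in them. Cytosine and guanine made up 54.7% of the Mybpc3 window and 64.0% of the Mycl window, against a median of 52.7% over all windows.

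Taken as log2(signal + 1.46), the mean change between the times (24 h minus 12 h, averaged over AMH and control) ranked the 10 genes at places 1, 2, 4 to 9, 11 and 19 of 12172. With the offset of 1.46 Mybpc3 led with 3.66 (12.6-fold on that scale) in AMH follicles and 3.99 (15.8-fold) in controls. Mycl followed with 3.17 (8.97-fold) in AMH follicles and 3.84 (14.4-fold) in controls. Itga8 closed the group with 2.99 in AMH follicles and 1.77 in controls. In AMH follicles Mybpc3, Cmtm1 and Mycl hold places 1 to 3, while in controls Tmem25 is at place 1 and Itga8 at place 111. The place of Tmem25 rests on its brighter probe set (4.09 in controls), and its other probe set differed by 2.27 there. The order depends on the offset too. With 16 in place of 1.46, the change of Mybpc3 was 2.71 in AMH follicles and 2.66 in controls, and that of Mycl was 2.67 in AMH follicles and 2.94 in controls, so Mybpc3 did not lead. Tmem25 then had 2.06 in controls, and Itga8 had 2.74 in AMH follicles, above Mybpc3. Genes of similar size that are not among the 10 were Lrmda at place 3 (3.18), Mmd2 at place 10 (2.73) and, from place 12 on, Grik3 (2.71), the hedgehog ligand gene Ihh (2.68), Slfn4 (2.63), Hsd11b2 (2.52), which inactivates glucocorticoids, 2810039B14Rik (2.49), the FSH receptor gene Fshr (2.41), Scara5 (2.40) and, at place 20, Cnmd (2.37). Without the 24 h arrays rich in oocyte transcripts, AMH replicate 1 and control replicate 4, the change of Mybpc3 was 3.26 in AMH follicles and 3.76 in controls, and that of Mycl was 2.49 in AMH follicles and 3.47 in controls. The added 1.46 understates changes of signals near the floor, and the 12 h means of Car3, Mybpc3, Plin5 and Tmem25 lie under the filter.

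**Figure D1:**
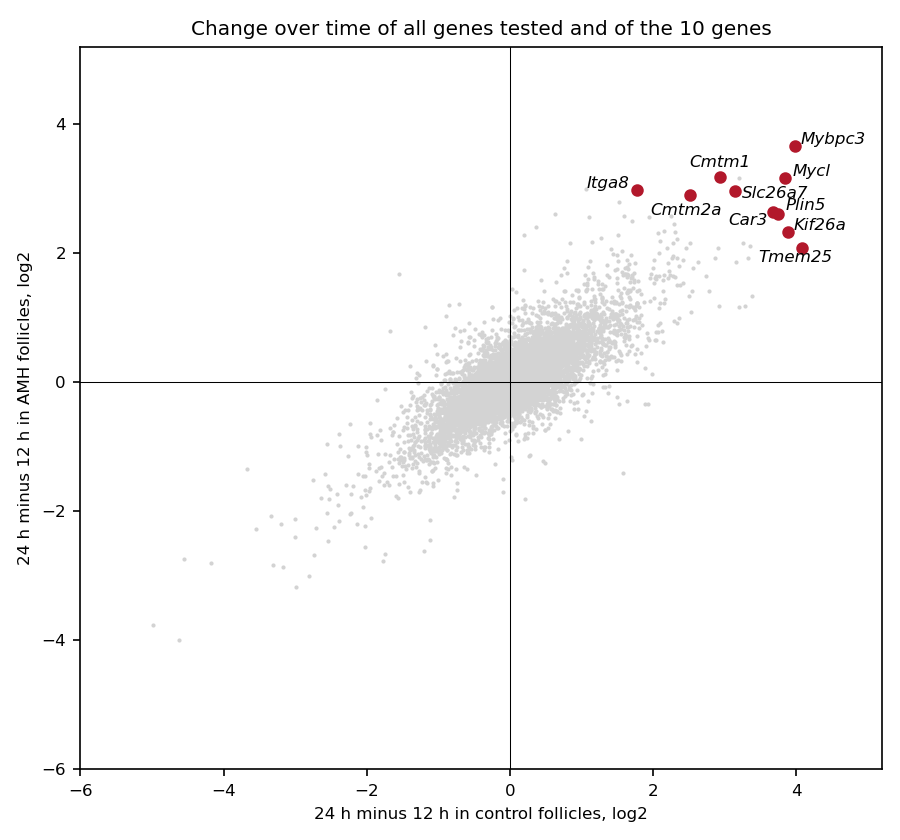
Difference between 24 h and 12 h, as the difference of mean log2(signal + 1.46), in AMH follicles (y axis) and control follicles (x axis) for 12172 genes, with the 10 genes in red. Mybpc3 is at 3.66 in AMH follicles and 3.99 in controls, while Itga8 and Tmem25 mark the ends of the group along the x axis, at 1.77 and 4.09.

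For Mybpc3 a single probe set, 1418551_at, was present. It read 389, 122, 158 and 105 in replicates 1 to 4 of AMH follicles at 24 h, against 58.4, 120.2, 192 and 208 in controls at 24 h. At 12 h it read 22.6, 8.85, 11.8 and 8.27 in AMH follicles and 10.1, 2.22, 9.20 and 8.88 in controls. Every 24 h array lay above every 12 h array, with 58.4 and 22.6 as the nearest values. Its mean log2 signal was 7.40 ± 0.84 with AMH and 7.03 ± 0.83 without at 24 h, and 3.74 ± 0.60 with AMH and 3.05 ± 0.78 without at 12 h (SD, n = 4 each).

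Mycl had 3 probe sets. The brightest, 1434777_at, read 945, 188, 373 and 43.1 in AMH follicles at 24 h, against 45.9, 224, 350.0 and 433 in controls at 24 h. Its values at 12 h were 27.4, 29.1, 21.9 and 21.0 in AMH follicles and 20.6, 11.1, 7.46 and 14.0 in controls. The 24 h arrays spread widely in both arms, from 43.1 to 945, and the lowest of them, AMH replicate 4 and control replicate 1, came near the 12 h range. Probe set 1422088_at read 395, 46.3, 123 and 9.5 in AMH follicles at 24 h, against 22.9, 72.2, 116 and 148 in controls at 24 h. The 12 h readings were 5.62, 5.56, 8.71 and 5.64 in AMH follicles and 7.01, 5.43, 7.33 and 7.99 in controls. Within each arm its arrays stood in the same order as those of the first probe set at 24 h. Within each arm the same order held for probe set 1422087_at, with 515, 62.5, 128 and 13.9 in AMH follicles at 24 h, against 33.0, 106, 175 and 198 in controls at 24 h. It read 11.8, 14.9, 8.47 and 14.9 in AMH follicles and 17.0, 10.3, 12.4 and 15.8 in controls at 12 h, so that AMH replicate 4 at 24 h fell inside the 12 h range.

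Plin5, the lipid droplet gene, ran against Mycl between the 24 h arrays of one group. Its probe set 1441915_s_at read 33.1, 278, 56.5 and 245 in AMH follicles at 24 h, against 705, 383, 167 and 67.4 in controls at 24 h. At 12 h it read 13.0, 43.2, 4.35 and 25 in AMH follicles and 25.2, 21.0, 4.77 and 24.3 in controls. AMH replicate 1, the highest 24 h array for Mycl, was the lowest for Plin5, and control replicate 1 was the highest for Plin5. The second Plin5 probe set, 1424937_at, read 17.2, 109.8, 40.3 and 87.1 in AMH follicles at 24 h, against 272, 156, 85.8 and 30.3 in controls at 24 h, with the same lowest and highest arrays. It read 23.8, 33.8, 4.52 and 9.79 in AMH follicles and 22.2, 14.5, 15.8 and 18.1 in controls at 12 h.

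Car3, the carbonic anhydrase, had 4 probe sets that disagreed. The brightest, 1449434_at, read 147, 71.8, 176 and 17.1 in AMH follicles at 24 h, against 54.8, 88.3, 140.0 and 167 in controls at 24 h. Its values at 12 h were 9.5, 13.7, 12.0 and 9.24 in AMH follicles and 5.91, 12.6, 6.80 and 3.79 in controls. The times did not overlap, though AMH replicate 4 at 24 h stood close to the 12 h arrays. The probe set 1460256_at read 17.4, 10.9, 24.4 and 7.51 in AMH follicles at 24 h, against 1.82, 19.3, 25.3 and 23.2 in controls at 24 h. It read 1.38, 1.26, 1.07 and 0.84 in AMH follicles and 5.36, 0.60, 2.23 and 0.55 in controls at 12 h. Its mean was higher at 24 h by 2.56 in AMH follicles and 2.19 in controls on the log2 scale, with control replicate 1 far below the other controls. The remaining pair stayed near the floor. For 1430584_s_at the values were 0.48, 4.71, 3.75 and 0.14 in AMH follicles at 24 h, against 6.18, 3.55, 8.24 and 6.70 in controls at 24 h, and 0.15, 4.74, 1.73 and 3.48 in AMH follicles and 1.46, 1.64, 5.02 and 3.16 in controls at 12 h. For 1453588_at they were 0.17, 2.91, 0.32 and 0.21 in AMH follicles at 24 h, against 0.42, 0.36, 0.61 and 1.09 in controls at 24 h, and 0.90, 0.49, 0.66 and 0.21 in AMH follicles and 0.35, 0.20, 1.08 and 0.52 in controls at 12 h. The times overlapped on both, with changes of -0.16 in AMH follicles and 0.87 in controls on the first, and of 0.10 in AMH follicles and 0.06 in controls on the other.

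Slc26a7, the anion transporter, read 465, 342, 305 and 174 in AMH follicles at 24 h on probe set 1425841_at, against 182, 322, 345.5 and 313 in controls at 24 h. The 12 h readings were 37.1, 85.3, 20.2 and 30.0 in AMH follicles and 33.2, 47.3, 13.6 and 40.7 in controls. The times did not overlap, and at 12 h replicate 2 was highest and replicate 3 lowest in both arms, which share a pool within each replicate. Its second probe set, 1436279_at, read 368, 306, 347 and 224 in AMH follicles at 24 h, against 189.6, 272, 289 and 365 in controls at 24 h. At 12 h this probe set read 25.4, 89.7, 11.9 and 31.5 in AMH follicles and 19.5, 40.6, 6.86 and 55.8 in controls. Again the times did not overlap, with changes of 3.25 in AMH follicles and 3.42 in controls.

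Kif26a, measured by 1447933_at, read 438, 225, 292 and 47.1 in AMH follicles at 24 h, against 114, 206, 250.1 and 329 in controls at 24 h. At 12 h it read 32.8, 83.5, 22.7 and 30.5 in AMH follicles and 23.1, 4.77, 17.7 and 12.9 in controls. The overlap came from AMH follicles alone, where replicate 4 at 24 h was below replicate 2 at 12 h. Tmem25 was read by 1436644_x_at, a type of probe set that may cross-hybridise. It read 98.0, 69.8, 64.9 and 10.0 in AMH follicles at 24 h, against 61.3, 56.7, 41.4 and 87.5 in controls at 24 h. Its values at 12 h were 8.51, 43.3, 1.11 and 13.1 in AMH follicles and 3.45, 2.66, 1.75 and 1.09 in controls. Tmem25 therefore had 12 h controls at the floor and scattered 12 h AMH arrays, again with replicate 2 as the highest. Its second probe set, 1452962_at, which did not pass the filter, read 30.3, 15.2, 17.5 and 9.46 in AMH follicles at 24 h, against 15.4, 17.3, 25.3 and 37.3 in controls at 24 h. At 12 h it had 6.60, 10.8, 9.03 and 4.74 in AMH follicles and 4.6, 2.76, 3.21 and 3.52 in controls, a change of 1.02 in AMH follicles and 2.27 in controls.

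Cmtm1 and Cmtm2a are neighbours in the annotation, in the order Cklf, Cmtm2a, Cmtm1, Cmtm2b, Cmtm3 and Cmtm4, and 1 probe set matches transcripts of both, so signals of the pair cannot be fully told apart. Cmtm1 on 1431710_at read 265, 117, 171 and 283 in AMH follicles at 24 h, against 139, 137, 141 and 173 in controls at 24 h. The 12 h readings were 27.4, 23.7, 11.8 and 22.3 in AMH follicles and 19.6, 13.4, 19.5 and 20.002 in controls. The lowest 24 h value, 117, lay well above the highest 12 h value, 27.4. Cmtm2a on 1426224_x_at, a type of probe set that may cross-hybridise, read 165, 133, 157 and 215 in AMH follicles at 24 h, against 161, 88.5, 101 and 111 in controls at 24 h. It read 30.5, 16.5, 21.8 and 17.0 in AMH follicles and 18.2, 15.1, 19.5 and 21.5 in controls at 12 h. Its AMH and control arrays overlapped at 24 h through control replicate 1. The shared probe set read 382, 319.7, 384 and 486 in AMH follicles at 24 h, against 349, 215, 244 and 252 in controls at 24 h. At 12 h the shared probe set read 48.9, 39.5, 35.7 and 14.7 in AMH follicles and 47.9, 17.6, 23.0 and 61.9 in controls. A second Cmtm2a probe set, 1442797_x_at, read 70.7, 58.6, 88.7 and 157 in AMH follicles at 24 h, against 51.3, 31.5, 41.3 and 71.0 in controls at 24 h, and 10.9, 5.89, 4.79 and 5.33 in AMH follicles and 5.45, 3.90, 0.27 and 10.2 in controls at 12 h. All 4 probe sets of the pair separated the times on all 16 arrays.

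Itga8, the integrin chain, read 624, 444, 589.6 and 538 on 1427489_at in AMH follicles at 24 h, against 270.2, 207, 275 and 233 in controls at 24 h. At 12 h it read 48.1, 59.0, 72.9 and 99.8 in AMH follicles and 66.9, 91.3, 122 and 32.8 in controls. The times did not overlap, and at 24 h the 2 arms did not overlap either. Its second probe set, 1454966_at, read 156, 129.9, 192 and 212 in AMH follicles at 24 h, against 98.3, 45.0, 80.1 and 67.4 in controls at 24 h. Its values at 12 h were 26.5, 21.2, 31.4 and 31.8 in AMH follicles and 25.7, 27.3, 22.5 and 30.7 in controls. Both separations held on it too.

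Counted over probe sets, 20 of 21 had a higher mean at 24 h in AMH follicles and 21 of 21 in controls. The 8 arrays of 24 h lay above the 8 arrays of 12 h in 12 of 21 probe sets, and for 7 of the 10 genes on their brightest probe set, the exceptions being Kif26a, Plin5 and Tmem25. Over all genes tested 2.87% met that condition, but since the genes were picked for this difference nothing is read from these shares.

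**Figure D2:**
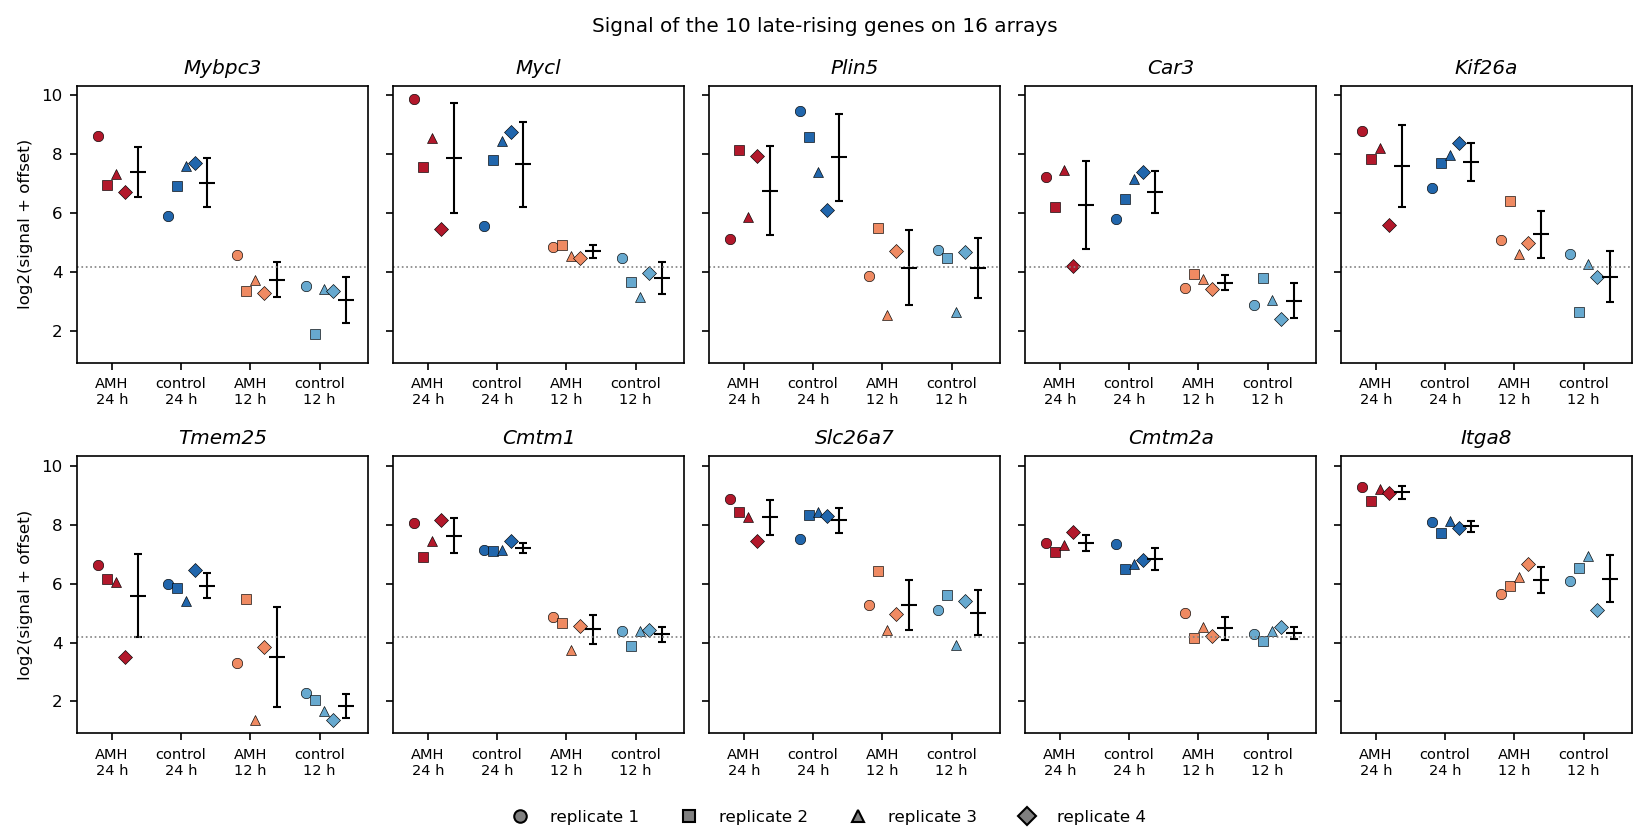
Log2(signal + 1.46) of the brightest single-gene probe set of each of the 10 genes (y axis) on all 16 arrays by group (x axis), with 1 marker shape per replicate, the mean and SD of 4 arrays as a bar, and the filter on low signal (4.18) as a dotted line. Mycl and Plin5 spread most at 24 h, with AMH replicate 1 at opposite ends, while the AMH and control arrays of Itga8 at 24 h stand apart.

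**Figure D3:**
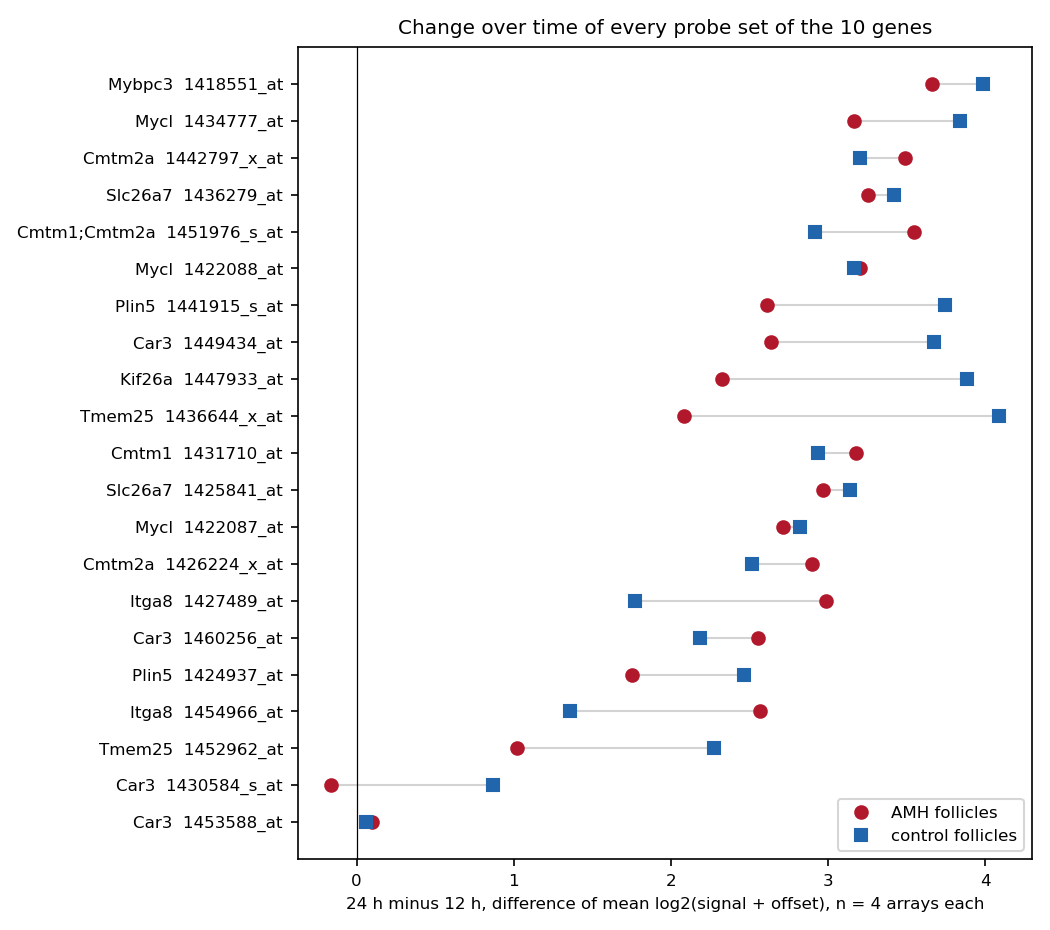
Difference of mean log2(signal + 1.46) between 24 h and 12 h (x axis, 4 arrays per group) for each of the 21 probe sets (y axis), with circles for AMH follicles and squares for controls. The circle lies to the right of the square for both Itga8 probe sets, the 4 Cmtm probe sets, Mycl 1422088_at, Car3 1460256_at and Car3 1453588_at. The 2 lowest probe sets belong to Car3.

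Within groups, the 24 h arrays arranged most of these genes along one order. At 24 h Mycl, Kif26a and Car3 were highest or near highest in AMH replicate 1 and lowest in AMH replicate 4 among AMH follicles, and lowest in control replicate 1 and highest in control replicate 4 among controls. Over the 8 arrays at 24 h, deviations of Mycl from its group mean correlated with those of Kif26a (r = 0.95), Slc26a7 (r = 0.95), Mybpc3 (r = 0.92) and Car3 (r = 0.92), and inversely with those of Plin5 (r = -0.86). Plin5 and Mybpc3 stood at -0.90. These values describe 8 arrays that share pools and are given without a test.

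The order was less uniform at 12 h, where Mycl correlated with Plin5 at 0.63 and with Car3 at -0.22. Over all 16 arrays the correlation of these deviations between Mycl and Mybpc3 was 0.72 (Spearman's rho 0.68), or 0.64 without the 2 arrays farthest from the Mycl median, AMH replicate 4 and control replicate 1 at 24 h. For Plin5 and Mycl it was -0.57 over 16 arrays (rho -0.52) and -0.38 without the 2 arrays farthest from the Plin5 median. Itga8 and Cmtm1 did not join this order over the 8 arrays at 24 h, with correlations with Mycl of 0.16 and 0.01, and Cmtm2a stood at -0.65.

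The same 24 h arrays also differed in granulosa cell transcripts. The mean log2 signal of 14 granulosa markers was 9.92, 9.23, 9.63 and 8.92 in AMH replicates 1 to 4, against 8.84, 9.34, 9.51 and 9.40 in control replicates 1 to 4. Its deviations from the group mean correlated with those of Mycl at 0.975 over the 8 arrays (rho 0.929) and at 0.93 without AMH replicate 4 and control replicate 1. Mybpc3 stood at 0.909, Slc26a7 at 0.907, Kif26a at 0.898 and Car3 at 0.891, and Plin5 at -0.852. Without those arrays Mybpc3 stood at 0.858, Slc26a7 at 0.649, Kif26a at 0.737, Car3 at 0.69 and Plin5 at -0.788. Tmem25 stood at 0.63 (rho 0.429), and at 0.206 without those arrays. Cmtm1 stood at 0.097, Itga8 at 0.305 and Cmtm2a at -0.578. Without AMH replicate 4 and control replicate 1 these were 0.862 for Cmtm1, 0.881 for Itga8 and 0.748 for Cmtm2a, so the values of these 3 genes rest on that pair of arrays. At 12 h the values were 0.56 for Mycl, -0.13 for Mybpc3, 0.88 for Slc26a7, 0.006 for Kif26a and 0.08 for Car3. Plin5 stood at 0.73, so it had the opposite sign there. Without the replicate 3 arrays, the lowest in granulosa markers at 12 h, Mycl stood at -0.014 and Plin5 at -0.187. The mean of the oocyte markers correlated at 24 h with Mycl at 0.505 and with Plin5 at -0.746. Immune markers correlated at 24 h with Plin5 at 0.819 and with Mybpc3 at -0.814. Without AMH replicate 1 and control replicate 4 the oocyte markers stood at -0.548 with Mycl and at 0.002 with Plin5, and the immune markers at 0.629 with Plin5 and at -0.432 with Mybpc3, so these rest largely on that pair of arrays. Endothelial markers correlated at 24 h with Mycl at 0.099 and with Car3 at 0.323. Without AMH replicates 1 and 2 these values were 0.824 for Mycl and 0.911 for Car3. What part these cell contents have in the signals of the 10 genes was not tested.

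**Figure D4:**
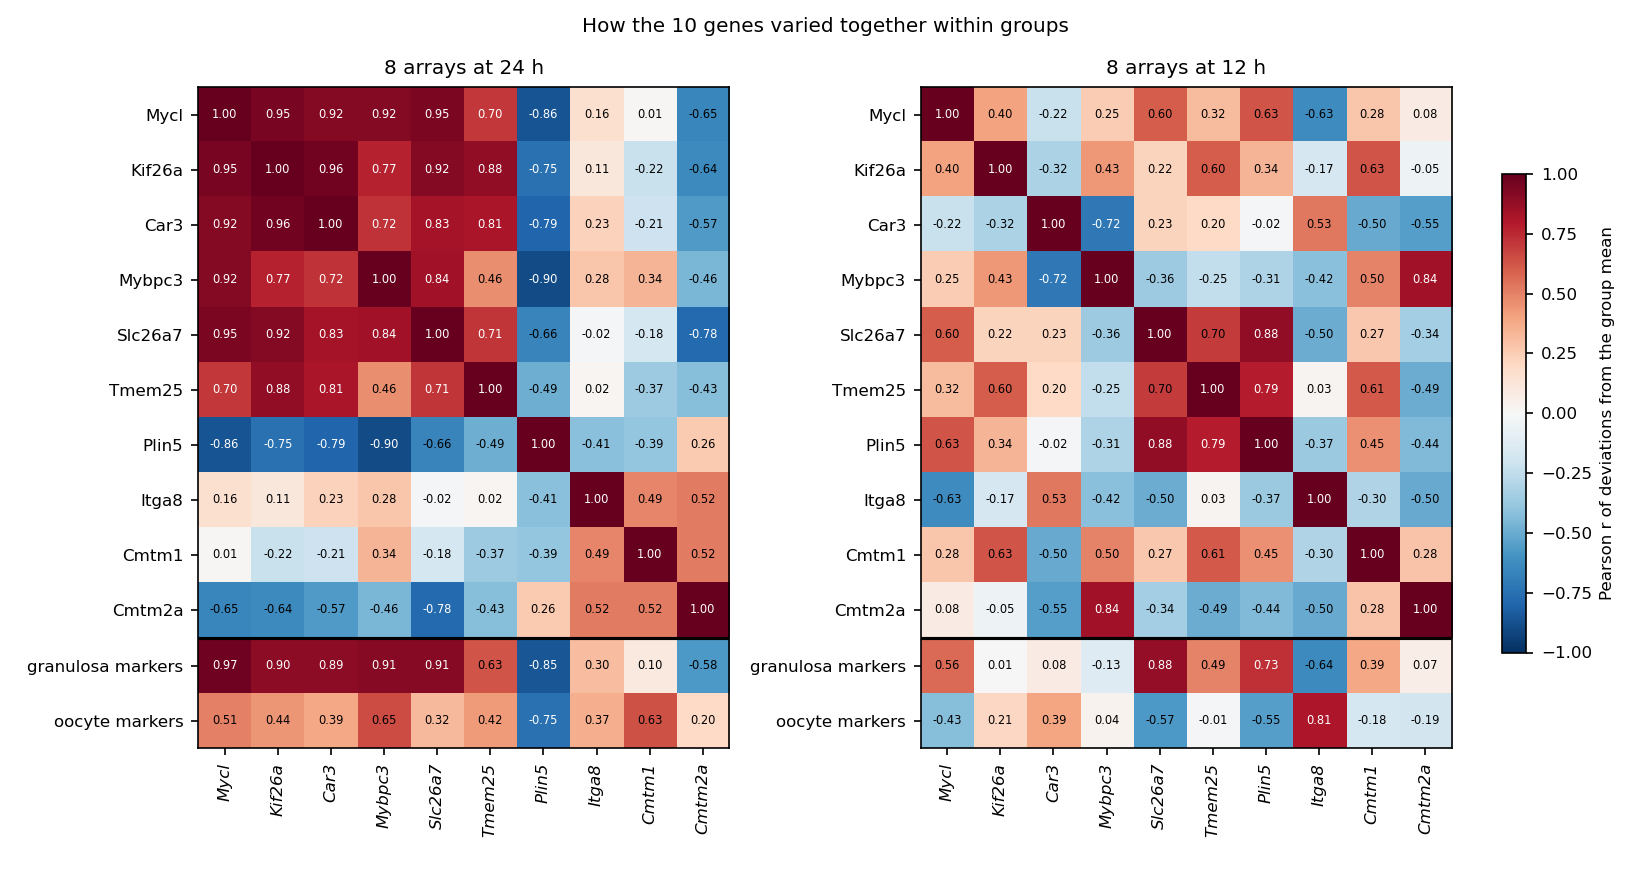
Pearson correlation of the deviations from the group mean for the 10 genes, and for the means of 14 granulosa and 20 oocyte markers (lower rows), over the 8 arrays at 24 h (left) and the 8 arrays at 12 h (right), with red for positive and blue for negative values. At 24 h Mycl, Kif26a, Car3, Mybpc3 and Slc26a7 form a red block that Plin5 opposes, and at 12 h Mycl stands at 0.25 with Mybpc3 and at -0.22 with Car3.

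Outside the 10 genes, the profiles most like Mybpc3 over all 16 arrays were those of the granulosa transcription factor gene Foxl2 (Pearson's r = 0.964), Cryl1 (0.954), Rasl10a (0.950), Cyb5a (0.948) and Plxnc1 (0.948). Those most like Mycl were Trim62 (0.960), the hedgehog ligand gene Dhh (0.955), Carhsp1 (0.954), Prps2 (0.951) and Shbg (0.947). Both lists rest on the difference between the times as well as on the order of the 24 h arrays. The changes of these genes were smaller than those of Mybpc3 and Mycl: Foxl2 differed between 24 h and 12 h by 1.04 in AMH follicles and 1.10 in controls, and Dhh by 1.41 in AMH follicles and 1.68 in controls.

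The fit across all genes tested AMH against control within pairs. The genes were picked by the difference between times, in an arm that is not recorded. By that difference Tmem25, Mybpc3, Kif26a, Mycl, Plin5 and Car3 hold places 1 to 6 in controls. Itga8, Slc26a7, Cmtm1 and Cmtm2a hold places 6, 7, 2 and 8 in AMH follicles, and 111, 15, 16 and 28 in controls. Low 12 h controls raise a place in controls, and high 24 h AMH arrays raise one in AMH follicles. These comparisons are therefore not separate from the choice. The difference of the AMH effect between times is the same as the difference of the 2 changes over time. None of the 10 genes passed an adjusted p of 0.05 by limma in any of 4 AMH comparisons. At 12 h 0% of all genes did so, at 24 h 0.0164% (2 genes, and 0 with quantile normalization, with no filter on low signal or with no block for the pairs), for the mean of both times 0% and for the difference of the AMH effect between times 0%. With unadjusted p under 0.05 stood 1 of the 10 genes at 12 h (788 of all 12172 genes), 2 at 24 h (496), 2 for the mean of both times (585) and 1 for the difference (687). The median difference of the 10 genes between AMH and control was 0.44 at 12 h and 0.16 at 24 h, beside 0.01 at each time for all genes. Since the choice of the genes bears on these medians, nothing is read from them.

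Itga8 had the smallest p of the 10 genes at 24 h. Its log2 signal averaged 9.09 ± 0.21 in AMH follicles and 7.94 ± 0.19 in controls (SD, n = 4 each), and the pairs differed by 1.20, 1.10, 1.10 and 1.20. This is a difference of 1.15 (SE 0.31), higher in 4 of 4 pairs, and by limma over all genes it did not pass the threshold (adjusted p = 0.813). Across the other settings and left-out pairs tried the adjusted p ran from 0.0984 to 1 and the difference from 1.10 to 1.27. The second probe set gave 1.26 (SE 0.22), higher in 4 of 4 pairs, with an adjusted p of 0.306 by limma over 27022 probe sets. Itga8 was the only one of the 10 genes whose AMH arrays all lay above the control arrays at 24 h, a condition that 1.46% of all genes met. By change over time Itga8 holds place 6 in AMH follicles and place 111 in controls, and high AMH arrays at 24 h raise the former. Its difference at 24 h is thus not separate from the choice of the genes, and nothing is read from that share.

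At 12 h Itga8 did not show this difference. The log2 signal there was 6.11 ± 0.44 in AMH follicles and 6.17 ± 0.79 in controls, a difference of -0.06 (SE 0.31), higher in 1 of 4 pairs. The AMH effect at 24 h minus that at 12 h was 1.21 (SE 0.44), which did not pass by limma (adjusted p = 0.80). Npnt, which encodes nephronectin, the ligand of the integrin that Itga8 forms, averaged 3.98 in AMH follicles and 2.27 in controls at 24 h, a difference of 1.72, higher in 4 of 4 pairs, that did not pass by limma either (adjusted p = 0.652). Both 24 h means of Npnt lie under the filter of 4.18, so sizes taken from them depend on the offset. The partner chain gene Itgb1 averaged 9.77 with AMH and 9.75 without at 24 h.

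Markers of stroma and smooth muscle also stood higher in AMH follicles at 24 h. All 13 measured markers had a higher mean in AMH follicles, by a median of 0.41 against 0.01 for all genes, and 1 of them, Dpt, passed the threshold by limma (1.82, adjusted p = 0.048). Dpt is one of the 2 genes called at 24 h, and no gene was called over all probe sets, with no filter, with quantile normalization, with no block or without replicate 2, 3 or 4. Their mean log2 signal ranged from 8.62 to 9.05 in AMH follicles and from 8.03 to 8.57 in controls, so these did not overlap, as with Itga8. Immune markers were higher in 10 of 10 (5.39 to 6.97 in AMH follicles, 5.29 to 6.09 in controls) and endothelial markers in 13 of 14 (5.92 to 6.84 in AMH follicles, 5.97 to 6.39 in controls), with none past the threshold. Higher with AMH at 12 h were 8 of 13 stroma markers (median 0.28), 6 of 10 immune markers (0.04) and 1 of 14 endothelial markers (-0.43). Itga8 stood at -0.06 there. Within groups at 24 h Itga8 correlated with the stroma markers at 0.16 (rho 0.048), and at -0.44 without AMH replicate 4 and control replicate 2. Their part in the Itga8 difference was not tested.

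Cmtm2a differed in the same direction at 24 h by 0.55 (SE 0.22), higher in 4 of 4 pairs but with overlapping arrays, and did not pass by limma (adjusted p = 1). Its second probe set gave 0.88 (SE 0.37) and the probe set shared with Cmtm1 gave 0.57 (SE 0.38), each higher in 4 of 4 pairs. Cmtm1 itself gave 0.42 (SE 0.26), higher in 3 of 4 pairs. These probe sets share sequence or a neighbour and do not count as separate evidence.

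For the genes along the Mycl order, the 24 h pairs as numbered in the labels pointed in opposite directions. AMH replicates 1 and 4 deviated more like control replicates 4 and 1 than like the controls of their own number, and whether the numbers mark the shared pools at 24 h was not tested. The pair differences of Mycl were 4.32, -0.24, 0.09 and -3.29, which gave a mean of 0.22 (SE 0.85), and this ran from -1.15 without pair 1 to 1.39 without pair 4. Plin5 gave -4.35, -0.46, -1.54 and 1.84, a mean of -1.13 (SE 0.73), which ran from -2.12 to -0.05 as single pairs were left out. Mybpc3 gave 2.70, 0.02, -0.27 and -0.98, a mean of 0.37 (SE 0.50). Pairs 1 and 4 thus had the largest differences, with opposite signs, in Mycl, Plin5, Mybpc3, Kif26a, Car3 and Slc26a7. The same held narrowly for Tmem25, with 0.66 in pair 1, 0.63 in pair 3 and -2.95 in pair 4. Without AMH replicate 1 and control replicate 4, which leaves pairs 2 and 3, the difference was -0.077 for Mycl, -0.13 for Mybpc3, -0.998 for Plin5 and 1.10 for Itga8. With all pairs, the differences at 24 h were -0.44 for Car3 (SE 0.56), -0.12 for Kif26a (SE 0.68), 0.10 for Slc26a7 (SE 0.31) and -0.34 for Tmem25 (SE 0.68).

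At 12 h Tmem25, Kif26a, Mycl, Car3 and Mybpc3 were higher on average with AMH, none of them past the threshold. By change over time these genes hold places 1, 3, 4, 6 and 2 in controls, and low controls at 12 h raise such a place. A higher AMH mean at 12 h is thus not separate from the choice of the genes, and nothing is read from it. Tmem25 gave 1.66 (SE 0.68, adjusted p = 0.716 by limma), with pairs of 1.02, 3.44, -0.32 and 2.51 and with the controls near the floor. With an offset of 16 it was 0.68, below the 0.87 of Kif26a, so its size and rank depend on the offset. Kif26a gave 1.44 (SE 0.68), higher in 4 of 4 pairs, with 3.77 in pair 2, where the control read 4.77. Mycl gave 0.90 (SE 0.85), higher in 4 of 4 pairs, and 0.49 with an offset of 16. The 12 h control means of Kif26a (3.84) and Mycl (3.81) also lie under the filter of 4.18. Mycl was the only one of the 10 whose AMH arrays all lay above the controls at 12 h on its brightest probe set, where 1.64% of all genes did so. Its other probe sets gave -0.14 and -0.11 at 12 h, without that separation. Car3 gave 0.61 (SE 0.56) in 4 of 4 pairs and Mybpc3 0.69 (SE 0.50) in 3 of 4 pairs.

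**Figure D5:**
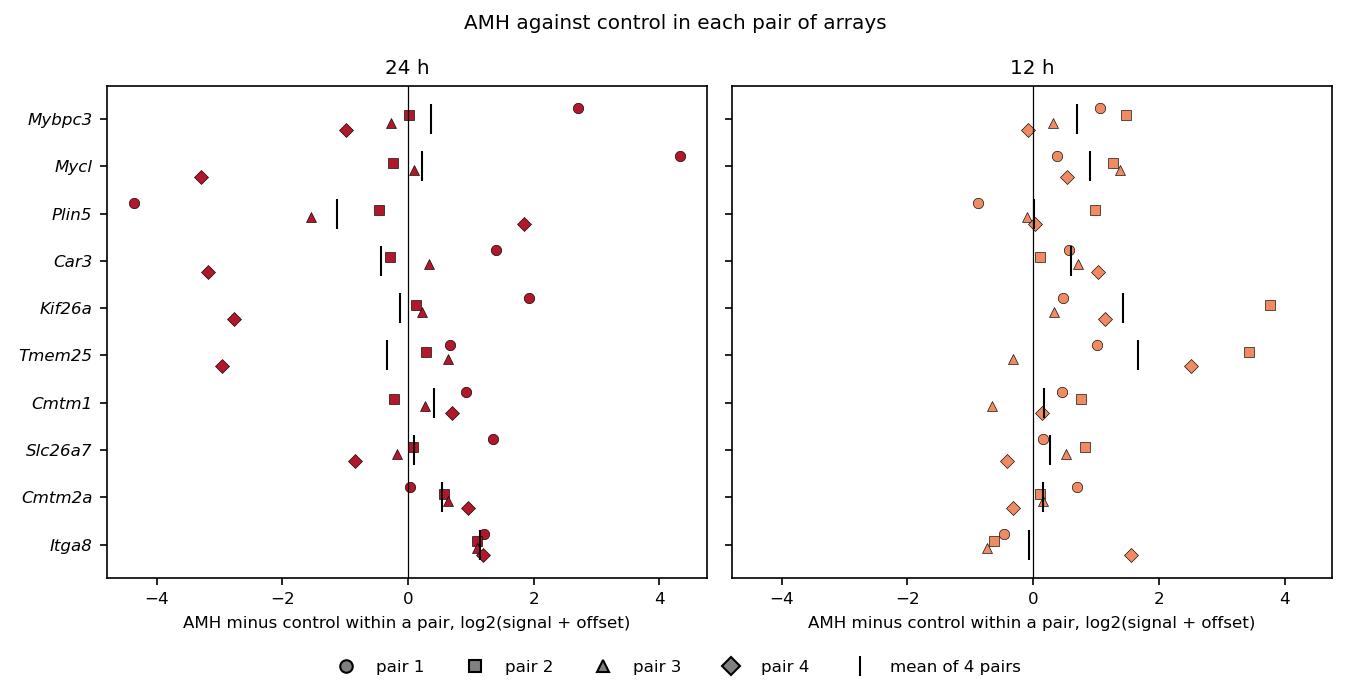
Difference between AMH and control within each of 4 pairs, in log2(signal + 1.46) (x axis), for the 10 genes (y axis) at 24 h (left) and 12 h (right), with 1 marker shape per pair and the mean as a vertical tick. The 4 pairs of Itga8 at 24 h lie at 1.10 to 1.20, while those of Mycl run from -3.29 to 4.32.

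Genes of the pathways around the 10 were followed from lists that leave the 10 out. By limma, 4.34% of all genes were called higher at 24 h in AMH follicles and 9.96% in controls, and 3.94% and 9.19% were called lower. Around Mybpc3, 10 of 27 listed sarcomere genes were measured, of which 0 were called higher in AMH follicles and 2 in controls, and 1 lower in each. Tnni3, cardiac troponin I, rose in controls by 1.84 (adjusted p = 0.00158), while in AMH follicles its difference was 0.89 (adjusted p = 0.111). Tnnt1, slow skeletal troponin T, rose in controls by 1.88 (adjusted p = 0.0179), and Tnnc1, cardiac troponin C, fell by 1.04 in AMH follicles (adjusted p = 0.00571) and in controls by 0.76 (adjusted p = 0.017). The sarcomere list's median was 0.10 in AMH follicles and -0.14 in controls, beside -0.02 and -0.01 for all genes.

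Around Mycl, 12 of 12 genes of the MYC and MAX network were measured, with 1 called higher and 2 lower in each arm. Mlx, a MAX-like partner, fell by 0.55 in AMH follicles and by 0.76 in controls, and Mxd3, a MAX-binding repressor, fell by 0.76 in AMH follicles and by 0.55 in controls. Mxd4, another such repressor, rose in controls by 0.58 (adjusted p = 0.00143). Mycn, the relative of Mycl, differed by 1.53 in AMH follicles and 1.23 in controls without passing (adjusted p = 0.0745 and 0.102), and Myc by -0.72 in AMH follicles and 0.36 in controls, also without passing. Max itself, the partner of all 3, differed by 0.04 in AMH follicles and -0.25 in controls.

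Around Plin5, 14 of 23 lipid droplet genes were measured, with 1 higher and 1 lower in AMH follicles and 2 higher and 0 lower in controls. Plin2, the main coat protein of steroidogenic cells, fell by 0.66 in AMH follicles (adjusted p = 0.00523), G0s2, an inhibitor of fat hydrolysis, rose there by 1.25 (adjusted p = 0.0125), and Plin3 rose in controls by 0.61 (adjusted p = 0.0202). Of 18 measured PPAR targets and genes of fatty acid oxidation, 1 was higher in AMH follicles and 2 in controls, with 2 lower in each. Ppara, a fatty acid receptor that drives Plin5 in mouse liver, rose by 0.80 in AMH follicles and by 0.67 in controls. Fabp3, a fatty acid carrier, rose in controls by 1.14 (adjusted p = 0.0191), and Angptl4, a lipase inhibitor, fell by 0.69 in each arm.

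The relatives of Car3, Slc26a7, Kif26a and the Cmtm pair mostly did not pass. Among 8 measured carbonic anhydrases, Car14, a membrane-bound form, rose by 2.32 in AMH follicles (adjusted p = 0.00196) and by 2.07 in controls (adjusted p = 0.00192), and no other was called. Of 8 measured SLC4 and SLC26 anion exchangers 0 were called in either arm. Among 26 measured kinesins, 0 were higher and 2 lower in AMH follicles and 2 higher and 0 lower in controls: Kif18b, a mitotic kinesin, fell by 1.41 in AMH follicles (adjusted p = 0.0234) and Kif16b, of endosome transport, rose by 0.91 in controls (adjusted p = 0.00194). Of 7 measured relatives of the Cmtm pair only Cmtm3 was called, higher by 0.78 in AMH follicles (adjusted p = 0.0103), against 0.36 in controls.

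Around Itga8, 17 integrin chains and ligands were measured, with 1 higher and 1 lower in AMH follicles and 1 higher and 5 lower in controls. Npnt fell in controls (adjusted p = 6.36e-05), where its mean was 2.27 at 24 h, under the filter, and 5.94 at 12 h. In AMH follicles it averaged 3.98 at 24 h and 5.33 at 12 h (adjusted p = 0.0588). Itga2, a collagen-binding chain, fell by 2.24 in controls (adjusted p = 0.000768), with -0.64 in AMH follicles, and Itga9 rose by 0.81 in AMH follicles and by 0.96 in controls. Whether these arms differ is the AMH difference between times, which did not pass for Npnt (adjusted p = 0.42 by limma).

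Among markers of the follicle's own cells, 0 of 20 oocyte markers were called in either arm by limma, with medians of -0.21 in AMH follicles and -0.24 in controls, and 1 of 7 theca markers was called higher in each arm. Of 14 granulosa markers, 5 were higher at 24 h in AMH follicles and 8 in controls and 0 lower. Foxl2 rose by 1.04 in AMH follicles and by 1.10 in controls, Inhba, an activin and inhibin subunit, rose by 2.17 in AMH follicles (adjusted p = 0.000453) and Amhr2, the AMH receptor, rose by 1.01 in controls (adjusted p = 0.00698). Of 16 ovulatory and luteal response genes 7 fell in AMH follicles and 9 in controls, among them Btc, Ptgs2 and Cd44. The median of the granulosa list was 0.89 in AMH follicles and 1.01 in controls, and that of the ovulatory list was -0.52 in AMH follicles and -1.14 in controls. Of 13 stroma markers, 4 were higher in AMH follicles and 7 in controls, including Dpt, Dcn and Tcf21.

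Listed markers of the cells that Mybpc3, Car3 and Plin5 are known from were mostly low. Of 10 striated muscle markers 1 passed the filter, Myh2, at 6.03 to 101, while Ckm did not exceed 14.9, Acta1 8.19, Myh7 20.6 and Nppa 10.2 on any array. Myh6, a heart myosin, had a median of 16.1 and reached 95.4. Muscle genes outside these markers were not all low. Of 27 listed sarcomere genes 10 passed the filter, among them Tnni3 and Tnnt1. At 24 h Tnni3 averaged 10.7 in AMH follicles and 10.8 in controls on the log2 scale, and Tnnt1 7.24 in AMH follicles and 7.31 in controls. Of 10 adipocyte markers 3 passed, Lpl (218 to 925), Pparg (44.2 to 312) and Fabp4 (24.5 to 385), which other cells also express, whereas Adipoq did not exceed 7.06, Lep 6.61 and Cidea 14.6.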

How the data were processed

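Each of 16 samples went on its own Affymetrix mouse array after amplification of 5 ng of total RNA, according to the labels' protocols. The authors deposited linear signal intensities per probe set. The submitters' processing notes name MAS5, whose version is not given in the sources used here, and detection calls were not used. The shared trimmed mean (2% at each end) shows a scaling before deposit.

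Intensities were turned into log2(signal + 1.46), where 1.46 is the signal's 10th percentile. The array has 45101 probe sets, from which 64 controls were dropped; 34945 of the others carried a single symbol. A probe set was kept if its mean reached the 40th percentile (4.18, a signal of 16.6), and the brightest stood for each gene. Fits used limma 3.58.1 (R 4.3.3), its moderation following the mean signal, and Benjamini-Hochberg adjustment over 12172 genes at 0.05; figures were made with matplotlib 3.10.9 in Python 3.11.15. The models were tested on simulated data. A difference is between group means on this log2 scale, with its standard error (SE).

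AMH comparisons had the 8 pairs as a block, since the labels say that both arms of a pair share a pool. Deviations of paired arrays correlated at 0.299, 0.349, 0.56 and 0.214 at 12 h and at -0.437, 0.327, 0.2 and -0.287 at 24 h for replicates 1 to 4. Comparisons of times used 4 group means, since the labels do not say that times shared a pool. Pools are separate animals, and p-values rest on 4 pools per time.

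The 10 genes, the 19 lists (315 of 337 genes matched) and the alternatives were chosen with earlier results of these data known. The text names all probe sets of the 10 genes, per list up to 3 called genes with the smallest p, the 5 genes most like Mybpc3 and Mycl, and the next 10 genes by size of change. Mycn, Myc, Max, Itgb1 and Npnt in the AMH comparison, and the correlations with granulosa, stroma and endothelial markers, were chosen after their values were seen.

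The alternatives were offsets of 1 and 16, no filter and a filter at the 60th percentile, quantile normalization, median centring, all probe sets, robust moderation, the oocyte marker mean as a covariate, leaving out the oocyte-rich 24 h arrays or each replicate, and the block for replicate numbers added or dropped.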

Additional observations from a re-analysis of the deposited data

Results flagged for a closer look

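In groups of 4 arrays, the gap between an extreme array and its nearest neighbour, taken over the group's range, passed Dixon's critical value in 8 of 80 groups tested over the probe sets, where chance alone marks about 1 in 20. Mybpc3 read 2.22 in control replicate 2 at 12 h, against 8.88 to 10.1 in the other controls. The Mycl probe set 1422088_at read 8.71 in AMH replicate 3 at 12 h, against 5.56 to 5.64. Slc26a7 on 1425841_at read 182 in control replicate 1 at 24 h, against 313 to 345.5. Cmtm1 read 173 in control replicate 4 at 24 h, against 137 to 141, and 13.4 in control replicate 2 at 12 h, against 19.5 or more in the other controls. Plin5 on 1441915_s_at read 4.77 in control replicate 3 at 12 h, against 21.0 to 25.2. Car3 read 2.91 on 1453588_at in AMH replicate 2 at 24 h, against 0.17 to 0.32, and 1.82 on 1460256_at in control replicate 1 at 24 h, against 19.3 to 25.3.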

How the results depend on the processing

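The differences between 24 h and 12 h of the 10 genes stayed positive in both arms in every alternative that measured them. Not every gene passed the filter in each alternative. Of the values at hand, 280 of 288 moved by less than 1 SD and 8, all with an offset of 16, by more. The filters, all probe sets, robust moderation and the block leave a gene's difference unchanged, so those values could not move. The genes were also picked for this difference, so nothing is read from its sign. None of the 10 genes was called in an AMH comparison in any setting that measured it, and 36 of 576 AMH values changed sign, all of them uncalled. The causes were not tested. Signals near the floor limit the 12 h values of Car3, Mybpc3, Plin5 and Tmem25, and those of Kif26a and Mycl in controls.

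The 24 h AMH comparison called 2 genes, and 0 with no filter, with quantile normalization or over all probe sets, and 0 to 1 with a replicate left out. The 12 h AMH comparison called 0 genes, but 1 with quantile normalization, 1 over all probe sets, 2 with the oocyte covariate and 6 without the oocyte-rich 24 h arrays. The mean of both times called 0 genes, but 6 without the oocyte-rich arrays and 0 to 1 with a replicate left out, and the difference between times 0, but 1 with quantile normalization, 2 with the oocyte covariate and 0 to 1 with a replicate left out. Genes called higher at 24 h numbered 528 in AMH follicles and 1212 in controls. Median centring, which shifted the median of all genes by -0.18 for the times in controls and by 0.12 for AMH at 24 h, gave 282 and 611, all probe sets gave 901 and 2262, and leaving out a replicate gave 190 to 332 and 637 to 866.

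With no replicate block for the pairs, 0 genes were called in each AMH comparison, at 24 h too. With the replicate block added across times, which the labels do not state, 647 genes were called higher at 24 h in AMH follicles and 1351 in controls.

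Signs turned as follows. With an offset of 16, Car3 stood at -0.035 for the mean of both times and Mybpc3 at 0.049 for the difference. Plin5 at 12 h stood at -0.0018 with quantile normalization, -0.025 with median centring and -0.23 with the oocyte covariate, which also gave 0.027 for Itga8 at 12 h and 0.12 for Kif26a at 24 h. Without the oocyte-rich arrays the 24 h values were 0.46 for Tmem25, -0.13 for Mybpc3, 0.17 for Kif26a, -0.077 for Mycl, 0.019 for Car3 and -0.048 for Slc26a7, and the Cmtm1 difference was -0.15. With a replicate left out, 12 h values ran from -0.60 to 0.16 for Itga8, -0.016 to 0.32 for Cmtm2a, -0.018 to 0.45 for Cmtm1 and -0.32 to 0.31 for Plin5. The 24 h values ran from -0.41 to 0.82 for Mybpc3, -1.15 to 1.39 for Mycl, -0.31 to 0.42 for Slc26a7, -0.68 to 0.53 for Tmem25, -0.81 to 0.76 for Kif26a and -1.05 to 0.48 for Car3. Means of both times ran from -0.039 to 1.20 for Mycl, -1.06 to 0.13 for Plin5, -0.21 to 0.47 for Car3 and -0.0009 to 0.46 for Slc26a7. Differences ran from -0.98 to 0.053 for Mybpc3, -0.62 to 0.025 for Slc26a7, -2.22 to 0.37 for Mycl and -1.66 to 0.013 for Car3.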
